A study of Homo sapiens with 6 samples.

Results

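The BCL2 family of apoptosis regulators was examined through 10 genes, BCL2, BCL2L1, MCL1, BAX, BAK1, BCL2L11, BID, BBC3, PMAIP1 and BAD, which were taken by symbol from the 26334 gene symbols of the deposited count table. All 10 were found there. RNA was counted in clones of MiaPaCa2, a human pancreatic ductal adenocarcinoma cell line with mesenchymal traits. The 3 ZEB1-KO clones had been electroporated with a plasmid for Cas9, GFP and a guide against ZEB1, whose zinc-finger protein represses epithelial genes, and the 3 WT clones with a Cas9 and GFP plasmid for which the labels name no guide. Cells of both groups were sorted for GFP, grown as clones in DMEM with 10% serum, and lysed at 2000 cells per library for SMART-Seq2, in which oligo(dT)-primed cDNA is amplified. Each library stands for 1 clone, so a difference that arose in a clone before or during isolation cannot be told apart from an effect of the deletion in that clone.

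Proteins of this family decide whether the outer membrane of the mitochondrion stays intact. The anti-apoptotic proteins BCL2, BCL-XL (gene BCL2L1) and MCL1 hold the effectors BAX and BAK (gene BAK1) in check, while BH3-only proteins such as BIM (gene BCL2L11), BID, PUMA (gene BBC3), NOXA (gene PMAIP1) and BAD bind the anti-apoptotic proteins or activate the effectors. Once active, BAX and BAK open pores through which cytochrome c leaves the mitochondrion, and caspases are then activated through APAF1. Pancreatic ductal tumour cells are known to depend in part on BCL-XL and MCL1 for survival.

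Total counts ranged from 18909305 to 36798770 in ZEB1-KO libraries and from 26242238 to 42876693 in WT libraries. The targeted gene, ZEB1, had 67, 140 and 369 counts in the ZEB1-KO replicates 1, 2 and 3, against 1486, 1011 and 830 counts in WT replicates 1, 2 and 3, so that transcript remained in each ZEB1-KO library and most in replicate 3. The keratin genes KRT8 and KRT18 and the vimentin gene VIM, which are expressed in this line, averaged 1940, 2588 and 1636 CPM in ZEB1-KO clones and 817, 1811 and 3538 CPM in WT clones, where CPM is the count scaled to a common library size. Of 14 markers of blood, endothelial, fibroblast, acinar and islet cells, 5 had 0 counts in all libraries (CD3E, DCN, LUM, INS and GCG), and the summed level of the 14 was 1.25 to 5.79 CPM in ZEB1-KO libraries and 0.851 to 12.1 CPM in WT libraries. CD14 made up 11.2 CPM of the sum in WT replicate 1, with 487 counts there against 28 and 14 in WT replicates 2 and 3. CDH5 had 59, 1 and 22 counts in ZEB1-KO replicates 1, 2 and 3. These are bulk samples, in which fewer expressing cells and less RNA per cell cannot be told apart.

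The comparison of ZEB1-KO with WT clones asks how family genes are expressed once ZEB1 has been deleted. BAK1 was 2.85-fold higher in ZEB1-KO clones, BCL2L11 was 1.80-fold higher, BID was 1.74-fold lower and BCL2 was 3.92-fold lower, and in each of these 4 genes no ZEB1-KO level overlapped a WT level. None of the 4 passed an adjusted p of 0.05 in edgeR's quasi-likelihood test. Neither did the targeted gene ZEB1, at a log2 fold change of -2.43 and an adjusted p of 0.0930 in that test. ZEB1 did pass in edgeR's likelihood ratio test (adjusted p = 0.00056) and in DESeq2 (adjusted p = 3.28e-05). The other tested family genes, BCL2L1, MCL1, BAX, PMAIP1 and BAD, had overlapping CPM levels in the 2 groups. BBC3 was at or close to the detection floor of 3 counts in most libraries and was not tested.

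Of the 10 genes, 9 passed the filter on low counts. In edgeR's quasi-likelihood test with adjustment over all 13659 genes tested, 0 of the 9 had an adjusted p below 0.05, beside 0.176% of all genes. At an unadjusted p below 0.05 there were 4 of the 9, 2 higher and 2 lower in ZEB1-KO clones, beside 17.7% of all genes. The same 4 genes were those without overlap between the groups, beside 23.6% of all genes. Since BCL2 needed its WT counts to enter the test and the set is small and was chosen with results known, these shares are given as a description. Other tests called more: 1 of 9 by edgeR's likelihood ratio test (4.52% of all genes), 2 of 9 by DESeq2 (7.12%) and 1 of 8 in the authors' deposited table (4.75%). limma-voom called 0. The likelihood ratio test, DESeq2 and the authors' table each called BAK1 higher, and DESeq2 also called BID lower. At a mean TPM of at least 1, limma on log2 of TPM plus 1 and plus 0.1 also called BAK1 higher (adjusted p = 0.0494 and 0.0479). Those fits called 101 and 94 of 9828 genes, and their median log2 fold change over all genes was 0.23 and 0.27. Without that filter, limma on TPM plus 1 did not call BAK1 (adjusted p = 0.0555). With 3 clones against 3, the smallest p that an exact permutation test can give for any gene is 0.1.

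**Figure D1:**
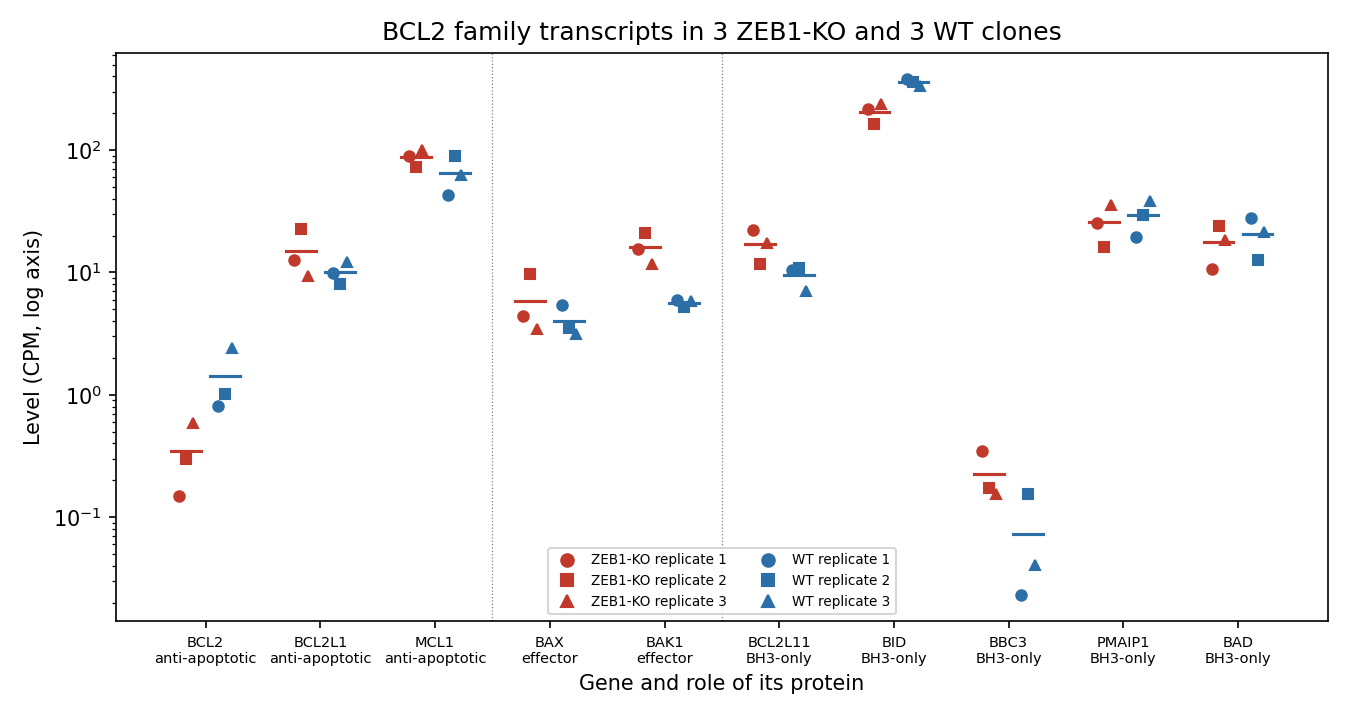
Level of each family gene in each clone, as CPM on a log axis, with ZEB1-KO clones in red left of WT clones in blue and the group mean as a line. BAK1 and BCL2L11 lie higher and BCL2 and BID lower in ZEB1-KO clones without overlap, while BCL2 and BBC3 have the lowest CPM.

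Among the effectors, BAK1 differed most by p-value of all family genes. BAK1 encodes BAK, which resides in the outer mitochondrial membrane. Counts were 314, 853 and 378 in ZEB1-KO replicates 1, 2 and 3, against 259, 168 and 145 counts in WT replicates 1, 2 and 3. In CPM these were 15.7, 21.1 and 11.8 in ZEB1-KO clones and 5.93, 5.18 and 5.87 in WT clones. The lowest ZEB1-KO clone thus stood above the highest WT clone, and the WT clones were close to each other while the ZEB1-KO clones spread. The means were 16.2 CPM ± 4.67 in ZEB1-KO clones and 5.66 CPM ± 0.418 in WT clones (SD, n = 3 each), and the log2 fold change was 1.51 (SE 0.29, 95% interval 0.85 to 2.17). The adjusted p was 0.0885 in edgeR's quasi-likelihood test, 0.00359 in its likelihood ratio test and 0.000192 in DESeq2. The authors' deposited table lists BAK1 at a log2 fold change of 1.51 and an adjusted p of 0.00415. Without ZEB1-KO replicate 2, its highest clone, the log2 fold change of BAK1 was 1.27, and the adjusted p was 0.149 in edgeR's quasi-likelihood test. Over the 6 fits with 1 library left out, the adjusted p in that test ran from 0.0781 to 0.278. It was highest without WT replicate 3, where the log2 fold change was 1.54.

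BAX encodes the effector that moves from the cytosol to mitochondria on activation. It had 88, 391 and 110 counts in the ZEB1-KO replicates 1, 2 and 3 and 235, 114 and 77 counts in WT replicates 1, 2 and 3. The high count in ZEB1-KO replicate 2 set that clone apart, while the other ZEB1-KO clones lay at 4.39 and 3.42 CPM, within the WT range of 3.12 to 5.38 CPM. Its log2 fold change was 0.54 (SE 0.45, 95% interval -0.49 to 1.57), at an adjusted p of 0.560 in edgeR's quasi-likelihood test. Without ZEB1-KO replicate 2 it was -0.043.

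Levels of different genes can be set side by side only per transcript length, so the deposited TPM values were used for the pair of effectors. BAK1 stood at 11.6, 17.7 and 8.89 TPM and BAX at 5.46, 13.6 and 4.35 TPM in ZEB1-KO replicates 1, 2 and 3. In WT replicates 1, 2 and 3, BAK1 stood at 4.19, 3.06 and 3.75 TPM and BAX at 6.39, 3.49 and 3.35 TPM. The ratio of BAK1 to BAX was 2.12, 1.30 and 2.04 in ZEB1-KO clones and 0.656, 0.877 and 1.12 in WT clones. BAK1 was thus the more abundant effector transcript in every ZEB1-KO clone, and in WT replicate 3 among the WT clones. ZEB1-KO replicate 2, in which both effectors were highest, had the lowest ratio of its group. No test was made of this ratio of 2 chosen members. Its numerator is BAK1, the family gene with the smallest p, so its separation is not independent of that of BAK1.

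**Figure D2:**
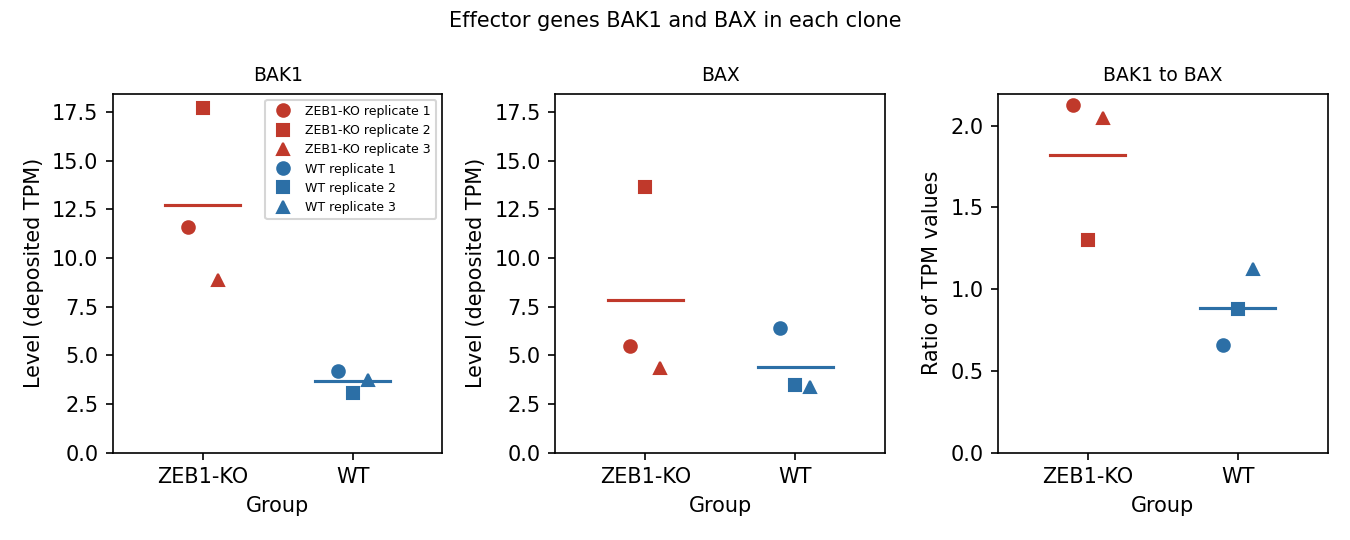
Deposited TPM of BAK1 and BAX and their ratio in each clone, with ZEB1-KO clones left of WT clones and the group mean as a line, on axes that start at 0. BAK1 separates the groups, while BAX overlaps. The ratio, which has BAK1 as its numerator, also separates them, with the lowest ZEB1-KO ratio at 1.30 and the highest WT ratio at 1.12.

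ZEB1 is known to bind E-box sequences of the form CACCTG (on the other strand this reads CAGGTG), so the 250 bases before the annotated starts of family genes were searched for it on both strands, together with the GC box GGGCGG, which on the other strand reads CCGCCC. RefSeq windows (GRCh38.p14) were matched for 9 of the 10 genes, all but MCL1, with 15 windows in all because some genes have several starts. An E-box lay in 1 of the 15 windows, that of BAX, against 17.5% of 35116 windows of all genes, and a GC box in 10 of the 15, against 42.6%. Counted per gene, with a match in any window, 1 of the 9 had the E-box and 6 of the 9 a GC box, against 20.6% and 46.2% of 27305 genes. The windows of the 2 effectors are shown because the groups separated in BAK1 and overlapped in BAX, while the E-box lies in the BAX window. Capitals mark the E-box and GC boxes in the strand of the gene, the last base lies next to the annotated start, BAK1 is at chr6:33580277-33580526 on the minus strand and BAX at chr19:48954625-48954874 on the plus strand.
BAK1: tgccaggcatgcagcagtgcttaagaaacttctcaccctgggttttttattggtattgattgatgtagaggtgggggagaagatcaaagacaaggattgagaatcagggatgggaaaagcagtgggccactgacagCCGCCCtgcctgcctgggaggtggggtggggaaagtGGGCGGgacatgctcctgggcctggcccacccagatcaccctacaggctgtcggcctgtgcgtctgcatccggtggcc
BAX: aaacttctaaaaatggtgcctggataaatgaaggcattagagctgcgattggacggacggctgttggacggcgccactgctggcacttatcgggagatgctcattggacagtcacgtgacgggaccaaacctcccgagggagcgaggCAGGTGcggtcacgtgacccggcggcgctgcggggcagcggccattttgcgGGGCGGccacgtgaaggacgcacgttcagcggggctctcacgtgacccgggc
The BAX window holds CAGGTG beginning 103 bases before the start and 1 GC box, whereas the BAK1 window holds 2 GC boxes and no match to the E-box. A match of letters is no measurement of binding, and no match says only that these letters do not occur in this window. BCL2L11, BID and BCL2, whose levels also separated the groups, had no match to CACCTG or CAGGTG in their windows. Other forms of E-box were not searched for.

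Among the anti-apoptotic genes, BCL2 had few counts and needed its WT libraries to pass the filter on low counts. It had 3, 12 and 19 counts in the ZEB1-KO replicates 1, 2 and 3, against 35, 33 and 60 counts in WT replicates 1, 2 and 3. Every ZEB1-KO clone was below every WT clone, ZEB1-KO replicate 1 was at the floor, and WT replicate 3 was the highest. The means were 0.346 CPM ± 0.225 in ZEB1-KO clones and 1.42 CPM ± 0.885 in WT clones (SD, n = 3 each). The log2 fold change was -1.97 (SE 0.62, 95% interval -3.40 to -0.55), at an adjusted p of 0.165 in edgeR's quasi-likelihood test. Without WT replicate 3 it was -1.34 (adjusted p = 0.419), and DESeq2 gave an adjusted p of 0.0717.

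MCL1, which encodes a short-lived protein of rapid turnover, had the higher TPM of the 2 anti-apoptotic genes with TPM values, MCL1 and BCL2L1. It stood at 89.4, 72.2 and 100.2 CPM in ZEB1-KO replicates 1, 2 and 3 and at 42.8, 88.6 and 62.5 CPM in WT replicates 1, 2 and 3. WT replicate 2 reached into the ZEB1-KO range, so the groups overlapped. MCL1 had a log2 fold change of 0.43 (SE 0.29, 95% interval -0.23 to 1.09), at an adjusted p of 0.464 in edgeR's quasi-likelihood test. On the TPM scale MCL1 was at 36.3 TPM ± 4.08 in ZEB1-KO clones and 21.9 TPM ± 5.96 in WT clones (SD, n = 3 each), and there the lowest ZEB1-KO clone, at 32.6 TPM, was above the highest WT clone, at 28.1 TPM. The TPM scale itself ran higher in ZEB1-KO clones, with a median log2 difference over all genes of 0.20 where no filter was applied, so the separation of MCL1 depends on the scale.

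BCL2L1, which encodes BCL-XL and a shorter pro-apoptotic isoform, stood at 12.5, 22.7 and 9.40 CPM in ZEB1-KO replicates 1, 2 and 3 and at 9.94, 8.08 and 12.1 CPM in WT replicates 1, 2 and 3. Replicate 2 was again the high clone of the ZEB1-KO group, and the others lay close to the WT range. Its log2 fold change of 0.57 (SE 0.36, 95% interval -0.26 to 1.39) had an adjusted p of 0.447 in edgeR's quasi-likelihood test, and without ZEB1-KO replicate 2 it was 0.12. Counts per symbol do not separate the isoforms of BCL2L1 or MCL1.

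The balance between MCL1 and BCL2L1 varied among clones and had nearly the same mean in the 2 groups. Of the summed TPM of both genes, MCL1 made up 81.7%, 66.6% and 87.0% in ZEB1-KO replicates 1, 2 and 3 and 73.0%, 87.3% and 76.4% in WT replicates 1, 2 and 3. The means were 78.4% ± 10.6 in ZEB1-KO clones and 78.9% ± 7.49 in WT clones (SD, n = 3 each), a difference smaller than the spread within either group. MCL1 transcript exceeded BCL2L1 transcript in every clone, from 2.00-fold to 6.68-fold in ZEB1-KO clones and from 2.70-fold to 6.86-fold in WT clones.

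Among the BH3-only genes, BID had a TPM that exceeded that of each of the 7 other family genes with a TPM value in all 6 libraries. BID encodes the protein that caspase-8 cleaves to link death receptors to mitochondria. Its level was 216.6, 164.1 and 236.2 CPM in ZEB1-KO replicates 1, 2 and 3, against 382.0, 359.6 and 331.3 CPM in WT replicates 1, 2 and 3. The highest ZEB1-KO clone was below the lowest WT clone. The means were 205.6 CPM ± 37.3 in ZEB1-KO clones and 357.6 CPM ± 25.4 in WT clones (SD, n = 3 each), and the log2 fold change was -0.80 (SE 0.21, 95% interval -1.28 to -0.32). The adjusted p was 0.122 in edgeR's quasi-likelihood test and 0.0373 in DESeq2, and the authors' deposited table gives an adjusted p of 0.0638. On the TPM scale BID was at 131.0 TPM ± 16.7 in ZEB1-KO clones and 190.7 TPM ± 27.5 in WT clones (SD, n = 3 each), again without overlap.

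With BID lower and BAK1 higher, the TPM ratio of BID to BAK1 was 11.4, 6.42 and 16.5 in ZEB1-KO replicates 1, 2 and 3, against 53.1, 57.2 and 46.5 in WT replicates 1, 2 and 3. The ratio pairs the member with the smallest p of those higher and that of those lower, so its separation follows from their choice.

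BCL2L11 encodes BIM, a BH3-only protein that binds all anti-apoptotic members and can activate BAX and BAK. Its level was 22.3, 11.8 and 17.3 CPM in ZEB1-KO replicates 1, 2 and 3, against 10.5, 10.9 and 7.05 CPM in WT replicates 1, 2 and 3. The groups did not overlap, but ZEB1-KO replicate 2 was only just above the highest WT clone. BCL2L11 had a log2 fold change of 0.85 (SE 0.32, 95% interval 0.12 to 1.57), at an adjusted p of 0.216 in edgeR's quasi-likelihood test. Exons of BCL2L11 overlap those of the antisense gene MIR4435-2HG over 727 bases in GENCODE release 29, and the kit does not record strand. MIR4435-2HG averaged 44.0 CPM ± 2.43 in ZEB1-KO clones and 66.5 CPM ± 14.5 in WT clones (SD, n = 3 each), the opposite direction to BCL2L11. Its part in the BCL2L11 counts was not tested.

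PMAIP1 and BAD, the BH3-only genes for NOXA, which binds MCL1, and for BAD, which binds BCL-XL and BCL2, had no difference beyond the spread among clones. PMAIP1 stood at 25.5, 16.1 and 35.5 CPM in ZEB1-KO replicates 1, 2 and 3 and at 19.6, 29.7 and 38.6 CPM in WT replicates 1, 2 and 3, with a log2 fold change of -0.19 and a 95% interval of -1.004 to 0.62. BAD stood at 10.7, 23.9 and 18.3 CPM in ZEB1-KO clones and at 27.9, 12.6 and 21.2 CPM in WT clones, with a log2 fold change of -0.22 and a 95% interval of -1.09 to 0.65. In both genes the group ranges overlapped widely, and the sign changed with a single library left out or on the TPM scale. The intervals still allow a change of about 2-fold lower, and also a rise, up to 0.62 (PMAIP1) and 0.65 (BAD) on the log2 scale. The adjusted p-values in edgeR's quasi-likelihood test were 0.811 for PMAIP1 and 0.795 for BAD.

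BBC3, the gene for the BH3-only protein PUMA, had 7, 7 and 5 counts in the ZEB1-KO replicates 1, 2 and 3 and 1, 5 and 1 counts in WT replicates 1, 2 and 3. The level was 0.156 to 0.349 CPM in ZEB1-KO clones and 0.0229 to 0.154 CPM in WT clones, so in CPM the groups did not overlap, while ZEB1-KO replicate 3 and WT replicate 2 had the same raw count of 5. No fold change is given at this depth. The floor accounts for counting error alone, as copies made in amplification are not separate molecules.

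**Figure D3:**
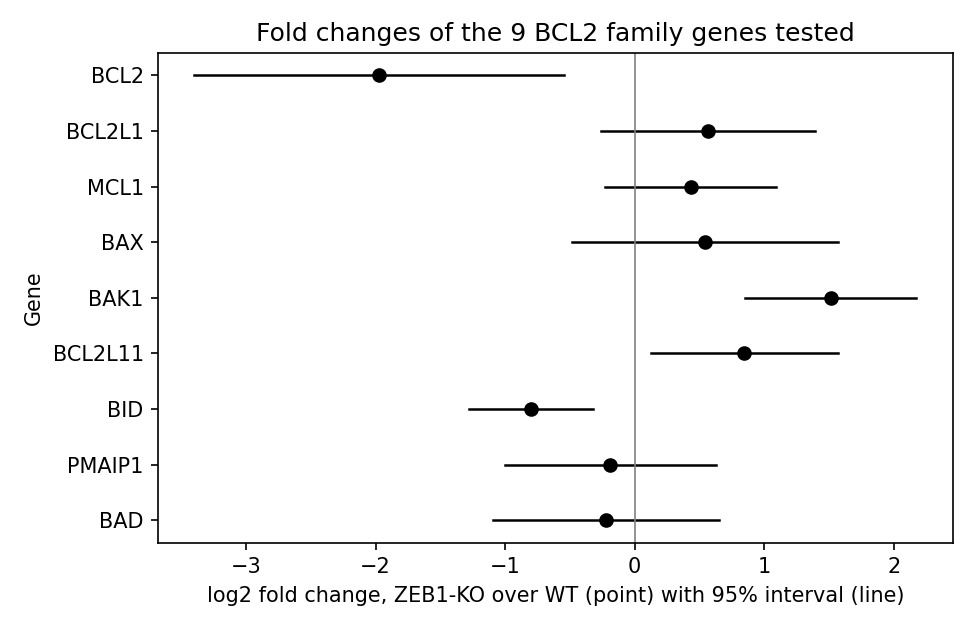
Log2 fold change of ZEB1-KO over WT clones for the 9 family genes tested, as a point with its 95% interval from edgeR's quasi-likelihood fit, unadjusted for the number of genes. The intervals of BCL2, BAK1, BCL2L11 and BID lie to one side of 0, and those of the other 5 genes include 0.

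Per transcript length the family genes fell into a similar order in the 2 groups. In ZEB1-KO clones the mean TPM was 131.0 for BID, 36.3 for MCL1, 25.02 for BAD, 22.3 for PMAIP1, 12.7 for BAK1, 10.1 for BCL2L1, 7.82 for BAX and 4.64 for BCL2L11. In WT clones it was 190.7 for BID, 24.3 for BAD, 21.9 for MCL1, 21.2 for PMAIP1, 5.58 for BCL2L1, 4.41 for BAX, 3.67 for BAK1 and 2.17 for BCL2L11. BAK1 held place 5, 4 and 5 in ZEB1-KO replicates 1, 2 and 3 and place 7, 7 and 6 in WT replicates 1, 2 and 3. Taken against the larger SD of each pair of neighbours in this order, the mean TPM of BID stood apart from the next gene, MCL1 from BAD and PMAIP1 from BAK1 in ZEB1-KO clones, and BID from the next gene, PMAIP1 from BCL2L1 and BAK1 from BCL2L11 in WT clones. In ZEB1-KO replicate 2, however, BAD at place 2 was above MCL1 at place 3, and BAK1 at place 4 was above PMAIP1 at place 6. The other neighbours did not differ beyond their spread.

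The spread among clones was uneven across members. The coefficient of variation of CPM in WT clones was 7.11% for BID and 7.38% for BAK1, against 37.1% for BAD and 62.4% for BCL2. In ZEB1-KO clones it was 16.2% for MCL1 and 18.1% for BID, against 57.6% for BAX and 65.1% for BCL2. BCL2 rests on 3 to 19 counts in ZEB1-KO libraries and 33 to 60 in WT libraries, against 4341 to 16676 over all libraries for BID. Counting error is relatively larger at low counts, and its part in these values was not tested. The coefficient is therefore not a measure of the clones alone. The median coefficient over the 9 tested genes was 37.7% in ZEB1-KO clones and 30.2% in WT clones. ZEB1-KO replicate 2 had the highest BAK1, BAX, BCL2L1 and BAD and the lowest BCL2L11, BID, PMAIP1 and MCL1 of its group. Without it the median was 20.1% in ZEB1-KO clones, and without WT replicate 3 the median was 16.8% in WT clones.

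**Figure D4:**
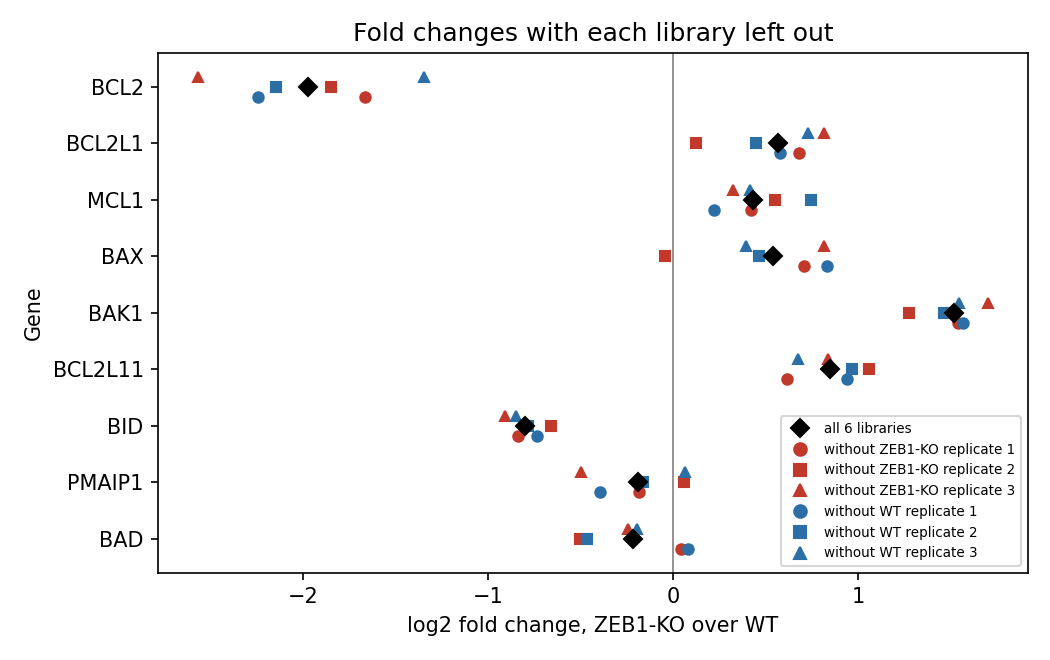
Log2 fold change of ZEB1-KO over WT clones for the 9 tested genes from all 6 libraries (black diamonds) and with each library left out (red for a ZEB1-KO library, blue for a WT library). BAK1 stays between 1.27 and 1.70 and BID between -0.91 and -0.66, while BAX, PMAIP1 and BAD reach or cross 0.

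The remaining BCL2-like genes gave no calls in edgeR's quasi-likelihood or likelihood ratio test or in DESeq2. Of 13 further family genes, 7 were tested, of which 2 lay above 0 on the log2 scale. Their median was -0.28, beside -0.0082 over all genes. By edgeR's quasi-likelihood test 0 of the 7 had an adjusted p below 0.05 and 0 an unadjusted p below 0.05 (17.7% of all genes), and DESeq2 called 0 (7.12%). BCL2L2, which encodes the anti-apoptotic BCL-W, was at 8.12 CPM ± 2.85 in ZEB1-KO clones and 9.88 CPM ± 2.36 in WT clones (SD, n = 3 each). BCL2L13 was at 61.2 CPM ± 4.95 in ZEB1-KO clones and 58.8 CPM ± 4.04 in WT clones (SD, n = 3 each). BOK, an effector-like gene, had a log2 fold change of 0.57 (adjusted p = 0.463) and BIK, a BH3-only gene, one of -0.90 (adjusted p = 0.561), with 587 counts in WT replicate 1 against 61 and 67 in the other WT clones. BMF, HRK and BNIP3 had at most 13 counts in any library and were not tested.

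Downstream of mitochondria, the apoptosome and caspase genes gave no calls in edgeR's quasi-likelihood test either. All 22 genes of that list were tested, 12 lay above 0 on the log2 scale, and the median was 0.07. In that test 0 had an adjusted p below 0.05, and 3, all lower, had an unadjusted p below 0.05, which is 13.6% of the list beside 17.7% of all genes. DESeq2 and the likelihood ratio test each called 1, BIRC3, beside 7.12% and 4.52% of all genes. APAF1, which forms the apoptosome with cytochrome c, was at 1.01 CPM ± 0.263 in ZEB1-KO clones and 2.69 CPM ± 0.965 in WT clones (SD, n = 3 each), with 16, 38 and 42 counts in the ZEB1-KO replicates 1, 2 and 3 against 110, 59 and 92 counts in WT replicates 1, 2 and 3. No APAF1 level in CPM overlapped between the groups, and the log2 fold change of -1.39 had an adjusted p of 0.144 in edgeR's quasi-likelihood test. The groups did not overlap in 13.6% of this list, beside 23.6% of all genes. The initiator CASP9, the cytochrome c gene CYCS, the caspase inhibitor genes XIAP and BIRC5 and the gene DIABLO, whose protein counters such inhibitors, had log2 fold changes of 0.10, -0.26, -0.23, 0.24 and 0.22, each with overlapping groups.

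The death receptor arm, which feeds into the family through BID, had 12 of 14 genes tested and 9 above 0 on the log2 scale (median 0.20). None passed an adjusted p of 0.05 in edgeR's quasi-likelihood test (0 of 12), and 2, both higher, had an unadjusted p below 0.05, which is 16.7% beside 17.7% of all genes. DESeq2 and the likelihood ratio test each called 1, TNFSF10, beside 7.12% and 4.52% of all genes. The death receptor genes TNFRSF10B and FAS, the gene of the protease that cleaves BID, CASP8, and the gene of its inhibitor, CFLAR, had log2 fold changes of 0.12, 0.16, 0.37 and -0.64, with adjusted p-values of 0.829, 0.924, 0.547 and 0.441 in edgeR's quasi-likelihood test. FAS varied among ZEB1-KO clones, with 311, 52 and 274 counts in replicates 1, 2 and 3.

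Regulators of family proteins and genes also gave no calls in edgeR's quasi-likelihood test. Of 12 genes for turnover and binding partners of MCL1 and BH3-only proteins, 11 were tested, with a median log2 fold change of 0.21. Of these, 1, which was lower, had an unadjusted p below 0.05 (9.09%, beside 17.7% of all genes), and DESeq2 called 0. Of 14 genes for transcription factors and cofactors that are known to act on family genes, all were tested, with a median log2 fold change of 0.07. Here 3 passed an unadjusted p of 0.05 (21.4%, beside 17.7% of all genes), 2 of them higher and 1 lower. DESeq2 called 3 of the 14, ATF4, STAT3 and TRIB3, beside 7.12% of all genes, and the likelihood ratio test called 2, ATF4 and STAT3, beside 4.52%. BIRC3, TNFSF10, STAT3 and TRIB3 were named for these calls after their values were seen. ATF4, a factor of the integrated stress response, was at 154.6, 227.4 and 185.2 CPM in ZEB1-KO replicates 1, 2 and 3, against 91.7, 88.9 and 105.8 CPM in WT replicates 1, 2 and 3. The groups did not overlap, as in 21.4% of this list and 23.6% of all genes. The log2 fold change was 0.99 (SE 0.21), at an adjusted p of 0.0980 in edgeR's quasi-likelihood test and 0.00572 in DESeq2. For ATF4 the authors' deposited table lists an adjusted p of 0.0220. FOXO3 and DDIT3, which encode activators of BH3-only genes, had log2 fold changes of 0.31 and 0.28 with overlapping groups.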

How the data were processed

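Raw counts per gene symbol, TPM values and a result table were used as the authors deposited them. The authors' tools were edgeR 3.2.2, HTSeq 0.6.1 and TopHat2 2.1.0, and the builds GRCh37 and hg19, per the submitters' processing notes. Not given in the sources used here are counting settings, gene lengths and the filter of the TPM table. Each library has 1 common total of deposited TPM values, which cover 8 of the 10 members. The authors' deposited result table, per the file headers, holds a log2 fold change, a log2 average CPM, a likelihood ratio score and a p-value with its adjusted p-value for 11013 genes.

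Libraries held 18909305 to 42876693 counts. In edgeR 4.0.16 (R 4.3.3), genes were filtered by filterByExpr (minimum count 10, total 15), libraries scaled by TMM, and a group term fitted and tested two-sided (glmQLFit, glmQLFTest). p-values were adjusted over 13659 genes by the Benjamini-Hochberg method, with 0.05 as threshold. Intervals and SEs were derived from the F statistic with 4 residual and 4.35 prior degrees of freedom. Fold changes are ZEB1-KO over WT. No library was a copy of another (chi-square per gene of at least 127). Replicates are clones per the series design, and the labels give no culture days or batches, so p-values measure the spread between these clones. SMART-Seq2 records no strand and no molecular identifiers. GENCODE release 29 and RefSeq windows (GRCh38.p14) gave overlapping genes and promoter sequence only. BCL2L1 and BAD share exon bases with the antisense gene ABALON (at most 27 counts) and with GPR137 (at most 102 counts), and processed pseudogenes of BAK1 exist, so these counts may hold reads of the other genes.

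Members and lists were chosen with earlier results of these data known. Named were the 10 members, ZEB1, 22 list genes fixed by name, and list genes past the threshold (0). Some of the genes fixed by name are not reported here. Alternatives were RLE, upper quartile or no scaling factors, no filter or 1 CPM in 3 libraries, DESeq2 1.42.0, the likelihood ratio test, limma-voom and limma 3.58.1 on log2 of TPM plus 1 or 0.1 (filtered at a mean TPM of 1, or unfiltered), the replicate number as a block, and leaving out each library.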

Additional observations from a re-analysis of the deposited data

How the results depend on the processing

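In edgeR's quasi-likelihood test 24 genes were called over all genes, 0 of the family genes and 0 of 66 tested list genes. Over all genes the count was 134 without a filter, 935 with DESeq2, 617 with the likelihood ratio test, 101, 94 and 80 with limma on TPM (plus 1, plus 0.1, and plus 1 without a filter) and 245 at an adjusted p below 0.1, which was chosen after seeing the data. It ranged from 5 to 25 with 1 library left out. Family genes called were 2 with DESeq2 (BAK1, BID), 1 with the likelihood ratio test, 1 with limma on TPM plus 1 and 1 on TPM plus 0.1 at a mean TPM of at least 1, and 1 at an adjusted p below 0.1 (each BAK1), and 0 to 0 with 1 library left out. List genes called were 5 with DESeq2, 4 with the likelihood ratio test, 1 with the replicate block (TNFSF10) and 1 at an adjusted p below 0.1 (ATF4), and 0 to 0 with 1 library left out. BAK1 kept a positive log2 fold change in 18 of 18 alternatives (1.27 to 1.72, adjusted p 0.000192 to 0.278) and BID a negative one in 18 of 18 (-0.91 to -0.54, adjusted p 0.0373 to 0.2996). BCL2 was negative in 14 of 14 and BCL2L11 positive in 18 of 18, with 0 calls for either. PMAIP1 and BAD had the opposite sign in 5 alternatives each and BAX in 1, none of them called. On the TPM scale the median log2 fold change over all genes was 0.20 to 0.27, against -0.0082 in the count fit, and with library size alone it was 0.14. The MCL1 share of MCL1 plus BCL2L1 ranged from 74.2% to 84.3% in ZEB1-KO and from 74.7% to 81.8% in WT clones with 1 library left out, and the median coefficient of variation from 20.1% to 40.7% in ZEB1-KO and from 16.8% to 26.4% in WT clones. Same-numbered libraries shared little (correlations of deviations across genes of 0.0219, 0.00714 and 0.224), so the numbers were not taken as pairs. Under the replicate block 20 genes were called over all genes and 0 of the family genes, and the log2 fold change of BAK1 was 1.48 with an adjusted p of 0.151. The cause of these differences between tests was not tested. Depth limits BBC3 and, in ZEB1-KO replicate 1, BCL2.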

Other observations

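TNFSF10, BIRC3, STAT3 and TRIB3 were called by DESeq2 and not by edgeR's quasi-likelihood test, and they were picked after their values were seen. The authors' deposited table lists adjusted p-values of 0.0490 for BIRC3, 0.0241 for STAT3 and 0.0707 for TRIB3. TNFRSF10A and BIRC2, which neither DESeq2 nor the quasi-likelihood test called, were also picked after their values were seen. TNFSF10, which encodes the death ligand TRAIL, had 16, 197 and 769 counts in the ZEB1-KO replicates 1, 2 and 3, against 3, 7 and 24 counts in WT replicates 1, 2 and 3. Its level ran from 0.798 to 23.9 CPM in ZEB1-KO clones and from 0.0687 to 0.972 CPM in WT clones, so ZEB1-KO replicate 1 overlapped WT replicate 3 and most of the difference lay in ZEB1-KO replicate 3. TNFSF10 passed the filter on low counts through its ZEB1-KO libraries and WT replicate 1 was at the floor of 3 counts, so the fitted log2 fold change of 4.64 rests on few WT counts. Its adjusted p was 0.134 in edgeR's quasi-likelihood test, 0.0362 with the replicate block and 0.0311 in DESeq2. TNFRSF10A, which encodes a TRAIL receptor, was at 8.28, 13.4 and 10.2 CPM in ZEB1-KO clones and 5.02, 7.65 and 4.98 CPM in WT clones. These levels did not overlap, as in 23.6% of all genes (adjusted p = 0.208 in edgeR's quasi-likelihood test). The related genes TNFRSF10B and TNFRSF10D had log2 fold changes of 0.12 and 0.07, with overlapping groups.

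BIRC3, the gene for the ubiquitin ligase cIAP2, was at 25.05, 4.30 and 14.6 CPM in ZEB1-KO replicates 1, 2 and 3, against 59.9, 46.8 and 42.98 CPM in WT replicates 1, 2 and 3 (log2 fold change -1.77, adjusted p = 0.151 in edgeR's quasi-likelihood test and 0.0120 in DESeq2). BIRC2, which encodes the related cIAP1, had a log2 fold change of -0.70 (adjusted p = 0.188 in edgeR's quasi-likelihood test). Its groups did not overlap, as in 23.6% of all genes. STAT3, which encodes a transcription factor known to activate BCL2L1 and MCL1, averaged 39.0 CPM ± 5.76 in ZEB1-KO clones and 90.8 CPM ± 41.1 in WT clones (SD, n = 3 each), at an adjusted p of 0.123 in edgeR's quasi-likelihood test and 0.0164 in DESeq2. TRIB3, a stress-induced pseudokinase gene, averaged 59.0 CPM ± 19.6 in ZEB1-KO clones and 23.4 CPM ± 12.1 in WT clones (SD, n = 3 each), at an adjusted p of 0.174 in edgeR's quasi-likelihood test and 0.0364 in DESeq2.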
